A study of Homo sapiens with 6 samples.

Results

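The genes described here are 10 feedback and transcription targets of beta-catenin, namely AXIN2, RNF43, ZNRF3, NKD1, SP5, LEF1, TCF7, MYC, ASCL2 and LGR5. They were taken by gene name from the deposited expression table, so they make up 10 of its 50868 genes. RNA-Seq had been performed on polyA RNA of HCT116, a line of human colorectal cancer cells with a mutant CTNNB1, the gene of beta-catenin. The cells had been transfected with pcYY2, an overexpression vector for the zinc finger transcription factor Yin Yang 2, or with pcCon, the empty vector pcDNA3.1(+). There were 3 samples of each, all from the same line, without any other treatment in the labels. The comparison asks how the output of the Wnt pathway stood when YY2 was overexpressed. The labels do not say whether the samples were separate cultures, so p-values measure the spread between these samples, which may be technical.

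In the canonical Wnt pathway, a destruction complex built on APC and the AXIN proteins marks beta-catenin for degradation. A Wnt ligand bound to its receptors stops this, and beta-catenin then enters the nucleus and joins the TCF and LEF proteins at their target genes. Several of those targets act back on the pathway, and in the intestinal crypt the pathway maintains the stem cells. In most colorectal cancers it is switched on by mutation of APC or of CTNNB1.

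Between 15158360 and 29572882 reads were counted per sample, and 3 counts, taken as the floor, corresponded to 0.101 to 0.198 CPM (counts scaled to the library total). This floor covers counting error only. YY2 itself stood at 4.75 to 6.90 CPM in pcCon and 30.2 to 31.8 CPM in pcYY2 (log2 fold change 2.39, adjusted p = 0.00107 by edgeR's quasi-likelihood test). It lies inside MBTPS2, with which it can share reads. EPCAM, an epithelial marker, was at 295 to 309 CPM in pcCon and 315 to 329 CPM in pcYY2, whereas CDH17, an intestinal one, had no count in any sample. The 11 markers of colon epithelium summed to 2171 to 2270 CPM in pcCon and 2839 to 3272 CPM in pcYY2. KRT8 and KRT19, 2 of the 8 tested, were higher in pcYY2, compared with 4.52% of all genes tested, and none was lower. Of the 8 log2 fold changes, 6 were positive and 2 negative (lowest -0.24). At an unadjusted p under 0.05 (edgeR), 4 of the 8 were higher and 1 lower. The difference in the sum goes with the groups, and its part in the results below was not tested. The 14 markers of blood, endothelial, stromal and liver cells summed to 46.2 to 122 CPM in pcCon and 52.9 to 182 CPM in pcYY2. COL1A2, DCN and LUM had no count, and pcCon sample 1 and pcYY2 sample 2 held the highest sums. In pcYY2 sample 2, the deepest library, PTPRC, which marks leukocytes, had 69 counts and PECAM1, which marks endothelial cells, had 27. These corresponded to 2.33 and 0.913 CPM, so most of the sum in that sample came from other markers of the list. Since their sums were the highest, results are also given without pcCon sample 1 and pcYY2 sample 2.

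The promoter of SP5 is shown since SP5 had the largest fold change of the Wnt targets tested and its sequence holds several matches to CTTTGAT or CTTTGAA. These are forms of the TCF and LEF recognition motif. SP5 encodes an Sp-family zinc finger repressor and is a known direct target of beta-catenin. The sequence is from RefSeq (GRCh38.p14, chr2:170715087-170715336, plus strand) and covers the 250 bases before the start site, with matches to CTTTGAT or CTTTGAA on either strand in capitals.
SP5: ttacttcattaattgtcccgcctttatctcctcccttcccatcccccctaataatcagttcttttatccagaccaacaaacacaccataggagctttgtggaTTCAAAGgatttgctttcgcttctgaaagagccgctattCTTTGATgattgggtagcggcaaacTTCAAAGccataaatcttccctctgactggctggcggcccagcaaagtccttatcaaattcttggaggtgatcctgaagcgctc
One match, CTTTGAT, lies at positions -109 to -103 from the start site on the strand of the gene. The others are CTTTGAA on the opposite strand, at -148 to -142 and at -84 to -78, so that they read TTCAAAG here. The motifs were searched from 250 bases before to 50 bases after each start, and all matches of SP5 lay before the start, in the bases shown. Of 34943 promoter windows searched in this way, 6.88% held at least 1 match to either motif and 0.0258% held at least 3. The window of SP5 was chosen in part for its matches, so these shares do not test it. RefSeq windows were matched for 4 of the 10 genes, SP5, LEF1, TCF7 and RNF43, with 6 windows in all. The windows of LEF1, TCF7 and RNF43 held neither CTTTGAT nor CTTTGAA. Other forms of the TCF and LEF motif were not searched, so these windows may hold such sites. GCCATNTT, the core of the sequence recognised by YY1 and YY2, was in 6.57% of all windows and in none of these 6. A match is a description of the letters and not evidence of binding.

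Of the 10 Wnt targets, 5 had a mean FPKM of at least 1 and were tested among 12015 genes. AXIN2, RNF43 and SP5 were lower in pcYY2 at an adjusted p of 0.05 or less, none was higher, and NKD1 and ZNRF3 did not pass. Over all genes tested, 4.85% were lower and 4.52% were higher by the same rule. The median log2 fold change of these 5 was -0.37, compared with 0.002 for all genes tested. SP5 entered this fit through its level in pcCon, so these counts describe only the genes that passed the limit. With a lower limit of 0.1 FPKM, which admits MYC and TCF7, 2 of 7 were lower (RNF43 and SP5), against 2.19% of 18877 genes, and the median was -0.34. The number called among the 5 was 0 without pcCon sample 1, 0 without pcCon sample 2, 1 without pcCon sample 3, 2 without pcYY2 sample 1, 3 without pcYY2 sample 2 and 0 without pcYY2 sample 3. Without both pcCon sample 1 and pcYY2 sample 2 it was 0, at a median of -0.50. In bulk samples, fewer cells of a type and less RNA per cell cannot be told apart.

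The CPM of pcYY2 lay below that of pcCon without overlap in 5 of the 7 genes counted well enough to compare, which were AXIN2, RNF43, SP5, NKD1 and TCF7. This pattern was seen in 18.0% of all 18877 genes tested with the lower limit. For a single gene, the smallest p that exact permutation (two-sided) can reach with 3 samples a group is 0.1. The summed CPM of the 10 genes was 462 to 472 in pcCon and 373 to 387 in pcYY2, and most of it came from RNF43.

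**Figure D1:**
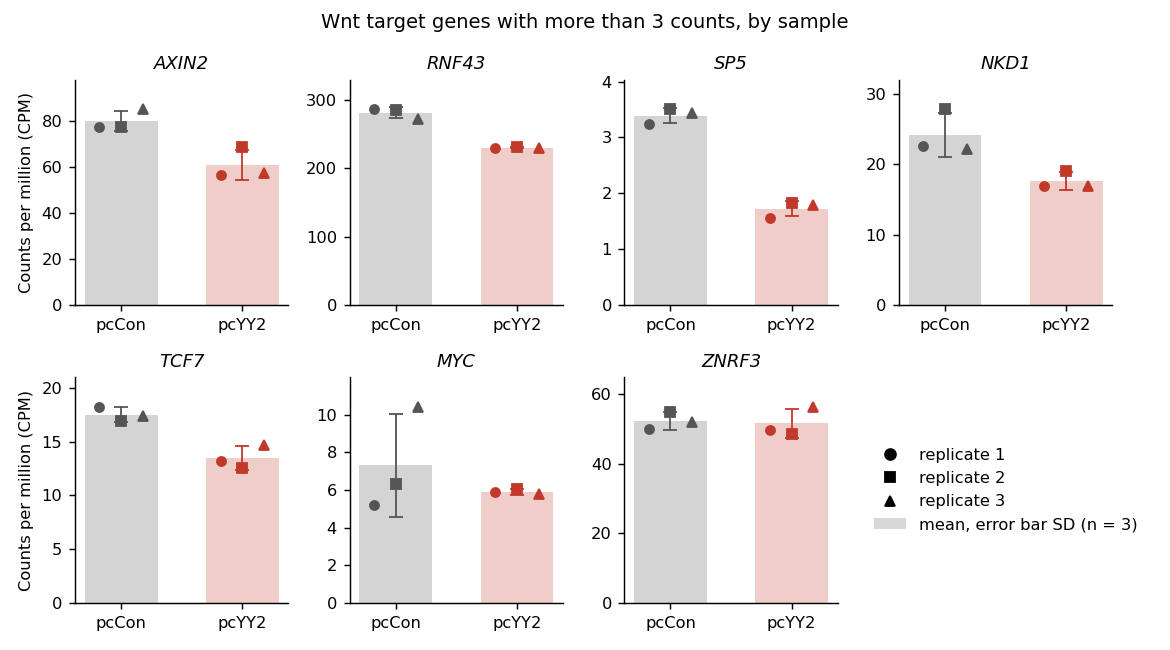
CPM of the 7 Wnt target genes with more than 3 counts, by sample in pcCon (grey) and pcYY2 (red). Bars are means, error bars are SD (n = 3) and each symbol is 1 sample. The groups do not overlap for AXIN2, RNF43, SP5, NKD1 and TCF7, whereas they do for MYC and ZNRF3.

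The genes that act back on the pathway at the receptor were examined first. RNF43 (ENSG00000108375, chr17:58352500-58417595, GRCh38) encodes a membrane ubiquitin ligase that removes Frizzled receptors from the cell surface. Its level was 286, 285 and 272 CPM in the pcCon samples and 229, 230 and 230 CPM in the pcYY2 samples. All pcYY2 samples stood below all pcCon samples, and they lay closer to each other than the pcCon samples did. RNF43 fell by 17.4% (log2 fold change -0.28, SE 0.0406, edgeR adjusted p = 0.0133). Without pcCon sample 1, pcCon sample 2 or pcYY2 sample 3, edgeR's adjusted p was 0.0541, 0.0621 and 0.0512, and it was 0.0900 without the pair of libraries named above. RNF43 overlaps SUPT4H1 on the same strand, which had 1227 to 2873 counts.

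ZNRF3 (ENSG00000183579, chr22:28883592-29057487) encodes the homolog of RNF43 with the same activity on Frizzled. It was measured at 49.98, 54.9 and 52.1 CPM in pcCon and 49.9, 48.7 and 56.4 CPM in pcYY2. The groups overlapped, and both the highest and the lowest sample were of pcYY2. The log2 fold change was -0.0044 (95% confidence interval -0.18 to 0.17, edgeR adjusted p = 0.978), and its sign turned in 6 of 16 alternatives. The ratio of RNF43 to ZNRF3 counts within a sample was 5.38 ± 0.298 in pcCon and 4.47 ± 0.343 in pcYY2 (SD, n = 3, exact two-sided permutation p = 0.1, the smallest possible). This ratio and the other ratios below, 5 in all, were chosen after the values were seen, and adjustment over them can only raise their p.

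Next, the genes that act on the pathway inside the cell were considered. AXIN2 (ENSG00000168646, chr17:65528563-65561647) encodes a scaffold of the destruction complex and is among the most widely used readouts of beta-catenin activity. It stood at 77.3, 77.3 and 85.0 CPM in pcCon and at 56.6, 68.5 and 57.5 CPM in pcYY2. The groups did not overlap, and pcYY2 sample 2 was the nearest to pcCon. AXIN2 fell by 22.9% (log2 fold change -0.37, SE 0.0908, edgeR adjusted p = 0.0487). This call lay close to the threshold, and with the lower FPKM limit the adjusted p of edgeR was 0.0725. Without pcCon samples 1, 2 or 3 the adjusted p of edgeR was 0.0998, 0.110 and 0.133, and without pcYY2 samples 1 or 3 it was 0.105 and 0.133. Without pcYY2 sample 2 the log2 fold change was -0.47 with an edgeR adjusted p of 0.0276, and without both libraries with the most counts on markers of other cells it was -0.50 at 0.0751.

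AXIN1, which encodes the related scaffold that is not a feedback target, gave a log2 fold change of -0.25 (95% confidence interval -0.59 to 0.10). The ratio of AXIN2 to AXIN1 counts was 3.08 ± 0.370 in pcCon and 2.81 ± 0.498 in pcYY2, and these overlapped (SD, n = 3, exact permutation p = 0.6). A difference between the 2 AXIN genes was thus not shown.

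NKD1 (ENSG00000140807, chr16:50548330-50640739) encodes an inhibitor that binds Dishevelled. Its values were 22.6, 27.8 and 22.2 CPM in pcCon and 16.9, 19.0 and 17.0 CPM in pcYY2. The groups did not overlap, and pcCon sample 2 was above the other pcCon samples. The log2 fold change was -0.44 (95% confidence interval -0.71 to -0.17), and the edgeR adjusted p of 0.0576 missed the threshold. DESeq2 gave an adjusted p of 0.0289, and this was the only one of 16 alternatives in which NKD1 passed. The ratio of NKD1 to ZNRF3 counts was 0.462 ± 0.0409 in pcCon and 0.344 ± 0.0451 in pcYY2 (SD, n = 3, exact permutation p = 0.1).

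The transcription factors among the targets were examined next. SP5 (ENSG00000204335, chr2:170715351-170718078), whose promoter is given above, had few counts, with 59, 64 and 52 in pcCon and 24, 54 and 33 in pcYY2. These corresponded to 3.24, 3.51 and 3.43 CPM in pcCon and 1.57, 1.83 and 1.79 CPM in pcYY2. Every pcYY2 sample stood below every pcCon sample. Its mean FPKM was 1.48 in pcCon and 0.755 in pcYY2, so it reached the limit of 1 FPKM through pcCon, and at the lower limit, which both groups pass, the adjusted p of edgeR was 0.0315. SP5 fell by 48.1% (95% confidence interval of the log2 fold change -1.31 to -0.58, SE 0.155, edgeR adjusted p = 0.0178). Without pcCon samples 1, 2 or 3 the adjusted p of edgeR was 0.0570, 0.0681 and 0.0625, and without pcYY2 sample 3 it was 0.0557. Without the pair of libraries with the most counts on other-cell markers it was 0.104 at a log2 fold change of -1.03. The ratio of SP5 to ZNRF3 counts was 0.0649 ± 0.00102 in pcCon and 0.0336 ± 0.00339 in pcYY2 (SD, n = 3, exact permutation p = 0.1).

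TCF7 (ENSG00000081059, chr5:134114711-134151865) encodes TCF1, a DNA-binding partner of beta-catenin that is itself a target of the pathway. It was at 18.2, 16.9 and 17.4 CPM in pcCon and at 13.2, 12.5 and 14.7 CPM in pcYY2. The groups did not overlap, but the log2 fold change of -0.34 (95% confidence interval -0.57 to -0.11) had an edgeR adjusted p of 0.0891 in the fit with the lower FPKM limit. The ratio of TCF7 to TCF7L2, which encodes another DNA-binding partner of beta-catenin, was 0.138 ± 0.00585 in pcCon and 0.1002 ± 0.00920 in pcYY2 (SD, n = 3, exact permutation p = 0.1). TCF7 overlaps SKP1 on the opposite strand. SKP1 had 2430 to 4710 counts compared with 202 to 370 for TCF7, and whether the counting used strand is not given in the sources used here. LEF1, which encodes a further partner, had 1 count in pcYY2 sample 2 and none in the other samples.

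MYC (ENSG00000136997) encodes a growth-promoting transcription factor and is a classical target of beta-catenin in colorectal cancer. Its counts were low, at 95, 115 and 158 in pcCon and 90, 179 and 106 in pcYY2. They corresponded to 5.22, 6.30 and 10.4 CPM in pcCon and 5.87, 6.05 and 5.77 CPM in pcYY2. The pcYY2 samples lay close together inside the range of pcCon, in which sample 3 stood above the other samples. The log2 fold change was -0.27 (95% confidence interval -0.85 to 0.32, edgeR adjusted p = 0.577), and without pcCon sample 3 it was 0.06. A change of MYC was therefore not detectable at this spread. MYC had fewer counts than PVT1, the noncoding gene next to it (455 to 1197), and whether the MYC row holds all reads of the gene could not be checked from the table. Its level and its fold change are given with this limit.

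The markers of crypt stem cells among the targets were at or under the floor. ASCL2, which encodes a transcription factor of intestinal stem cells, had no count in any sample, which allows at most 0.101 CPM in the deepest library. LGR5, which encodes an R-spondin receptor and marks those cells, had 0, 1 and 0 counts in pcCon and 0, 2 and 1 in pcYY2. No comparison was possible for ASCL2, LGR5 and LEF1.

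The levels of different genes were compared as CPM per kilobase of the canonical GENCODE 44 transcript. In pcCon, RNF43 was the highest at 62.2 ± 1.79, followed by AXIN2 at 18.8 ± 1.05, ZNRF3 at 7.64 ± 0.362 and TCF7 at 5.37 ± 0.209 (SD, n = 3). MYC at 3.32 ± 1.25 and NKD1 at 2.84 ± 0.369 were not separated, since their ranges overlapped, and SP5 was the lowest of the 7 genes above the floor at 1.67 ± 0.0676 CPM per kilobase. ASCL2, LGR5 and LEF1 lay below it, at or under the floor. In pcYY2 the order of the 7 means was the same, with RNF43 at 50.8 ± 0.151 and SP5 at 0.850 ± 0.0698 CPM per kilobase (SD, n = 3). The transcripts in use were not measured, so these levels depend on the transcript chosen.

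**Figure D2:**
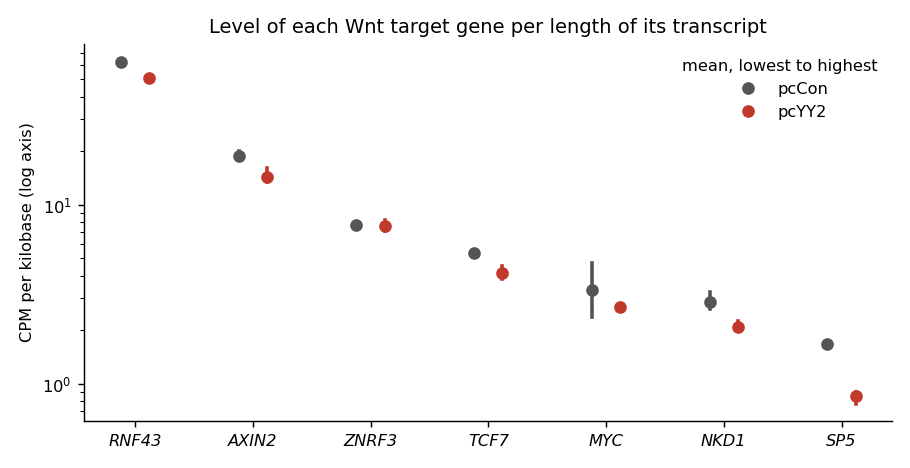
Level of each Wnt target gene as CPM per kilobase of transcript, on a log axis, in pcCon (grey) and pcYY2 (red). Dots are means and lines run from the lowest to the highest of 3 samples. RNF43 stands at 62.2 in pcCon and SP5 at 1.67, and MYC and NKD1 overlap in pcCon.

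The rest of the pathway was described from lists by role. Of 22 other known Wnt targets tested, 4 were lower and none was higher, with a median log2 fold change of -0.14, compared with 4.85% lower and a median of 0.002 over all genes. With the lower FPKM limit, 2 of 25 were lower, namely SOX9 and CCND1, against 2.19% of all genes. SOX4 and NKD2 had an edgeR adjusted p of 0.0692 and 0.0660 in that fit. In the fit with the limit of 1 FPKM, the 4 were SOX9, SOX4, CCND1 and NKD2. SOX9, a transcription factor of the crypt base, stood at 172, 162 and 173 CPM in pcCon and 120, 107 and 116 CPM in pcYY2. It fell by 31.8% (log2 fold change -0.55, SE 0.059, edgeR adjusted p = 0.00557) and passed in 15 of 16 alternatives. The exception was the fit without pcCon sample 1 and pcYY2 sample 2, with an adjusted p of 0.0619 by edgeR. CCND1, which encodes cyclin D1, fell by 16.3% (edgeR adjusted p = 0.0165), with an adjusted p of 0.0540, 0.0698 and 0.0635 without pcCon samples 1, 2 and 3. SOX4, a further transcription factor, fell by 17.0% (edgeR adjusted p = 0.0480). NKD2, the paralog of NKD1, fell by 28.9% (edgeR adjusted p = 0.0453). Leaving out any single sample except pcYY2 sample 3 lost the call of SOX4 (adjusted p 0.0654 to 0.130), and leaving out any single sample lost that of NKD2 (0.0713 to 0.123).

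Of the ligands and secretion factors, 1 of 7 tested was lower, compared with 4.85% of all genes. WNT3, a ligand of the canonical pathway, fell by 45.4% (log2 fold change -0.87, edgeR adjusted p = 0.0252), from 8.93 to 11.97 CPM in pcCon to 4.95 to 6.40 CPM in pcYY2. Its adjusted p was 0.0573 to 0.0808 without any single sample other than pcYY2 sample 1. WNT3A gave a log2 fold change of -0.41, whereas WNT16 and WNT9A gave 0.19 and 0.36. None of these passed, with edgeR adjusted p of 0.0758, 0.0694 and 0.117. At an unadjusted p under 0.05 (edgeR), 2 of the 7 were lower and 2 higher, compared with 14.5% and 14.4% of all genes. The summed CPM of this list was 213 to 217 in pcCon and 200 to 221 in pcYY2. With the lower FPKM limit, 2 of 14 were lower, against 2.19% of all genes. The other was WNT2B, which is named here after its values were seen. Its mean FPKM was 0.316 in pcCon and 0.0799 in pcYY2, so it reached the limit only through pcCon, the group in which it was high. It had 96, 95 and 76 counts in pcCon and 21, 27 and 30 counts in pcYY2 (log2 fold change -1.98, SE 0.230, edgeR adjusted p = 0.00678). Its row overlaps that of ST7L, which had more counts (1432 over all samples, compared with 345 for WNT2B). The call of WNT2B held without any single sample (adjusted p 0.0150 to 0.0330), and its adjusted p was 0.0615 without the pair of libraries.

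Among the receptors, 1 of 12 tested was lower, compared with 4.85% of all genes, and 11 of the 12 log2 fold changes were negative (median -0.21), compared with 49.7% of all genes. With the lower FPKM limit, 2 of 15 were lower, against 2.19% of all genes. RYK, an atypical Wnt receptor, fell by 21.4% (log2 fold change -0.35, SE 0.0551, edgeR adjusted p = 0.0159). Its adjusted p was 0.0647 without pcCon sample 2 and 0.0612 without pcCon sample 3. The other receptor called with the lower limit was ROR1, a receptor tyrosine kinase named after its values were seen (log2 fold change -0.67, edgeR adjusted p = 0.0436). Its call was lost without any single sample (adjusted p 0.0614 to 0.131). The Frizzled receptor genes FZD3, FZD4 and FZD6 gave log2 fold changes of -0.35, -0.47 and -0.39, with edgeR adjusted p of 0.0504, 0.0523 and 0.0525, just above the threshold. The row of FZD4 overlaps that of PRSS23, which had 902 counts over all samples compared with 2203 for FZD4. The summed CPM of the receptor list was 589 to 595 in pcCon and 496 to 503 in pcYY2.

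None of 4 secreted or membrane inhibitors tested passed. NOTUM, an enzyme that inactivates Wnt proteins and is also a target, gave a log2 fold change of -0.52 (95% confidence interval -0.87 to -0.16, edgeR adjusted p = 0.0754). DKK1, a target that blocks the LRP coreceptors, gave 0.11 (95% confidence interval -0.02 to 0.24, edgeR adjusted p = 0.241). KREMEN1 and KREMEN2, which encode membrane proteins, gave 0.12 and -0.02 (edgeR adjusted p = 0.308 and 0.925). The row of KREMEN2 overlaps that of PKMYT1, which had more counts (4849 over all samples, compared with 870 for KREMEN2).

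In the destruction complex and its regulators, beta-catenin included, 2 of 22 genes tested were lower, compared with 4.85% of all genes. The median was 0.01, with 11 negative and 11 positive log2 fold changes. At an unadjusted p under 0.05 (edgeR), 2 of the 22 were lower and 1 higher, compared with 14.5% and 14.4% of all genes. With the lower FPKM limit, 1 of 23 was lower, against 2.19% of all genes. AMER1, which brings APC to the membrane, fell by 41.2% (log2 fold change -0.77, edgeR adjusted p = 0.0195), with an adjusted p of 0.0650, 0.0578 and 0.0584 without pcCon samples 1, 2 and 3. CTNNB1 stood at 394, 369 and 379 CPM in pcCon and 330, 327 and 341 CPM in pcYY2. The groups did not overlap, and CTNNB1 fell by 11.8% (log2 fold change -0.18, SE 0.0415, edgeR adjusted p = 0.0433). This call was lost without any single sample (adjusted p 0.0860 to 0.121) and with the lower FPKM limit (0.0857). APC and GSK3B, which encode the tumor suppressor and the kinase of the complex, had log2 fold changes of -0.12 and 0.02, with edgeR adjusted p of 0.590 and 0.822. RNF146 and FBXW11, of the same list, gave log2 fold changes of 0.66 and 0.12. Neither passed, with edgeR adjusted p of 0.141 and 0.208. RNF146 passed in 1 of 16 alternatives.

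Of 19 nuclear partners of beta-catenin tested, 1 was higher, compared with 4.52% of all genes, and none was lower. CREBBP, a histone acetyltransferase, rose by 21.3% (log2 fold change 0.28, SE 0.0588, edgeR adjusted p = 0.0342). This call was lost without any single sample other than pcCon sample 1 (adjusted p 0.0570 to 0.109). TCF7L2, the highest of the TCF genes per kilobase (31.1 CPM per kilobase in pcCon), gave a log2 fold change of 0.10 (95% confidence interval -0.03 to 0.23) and TCF7L1 gave -0.27 (-0.51 to -0.02). Neither passed, with edgeR adjusted p of 0.286 and 0.141. EP300 and BCL9L gave 0.18 and 0.13 and HDAC2 gave -0.22, with edgeR adjusted p of 0.0694, 0.107 and 0.0572. At an unadjusted p under 0.05 (edgeR), 4 of the 19 were lower and 3 higher, compared with 14.5% and 14.4% of all genes.

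**Figure D3:**
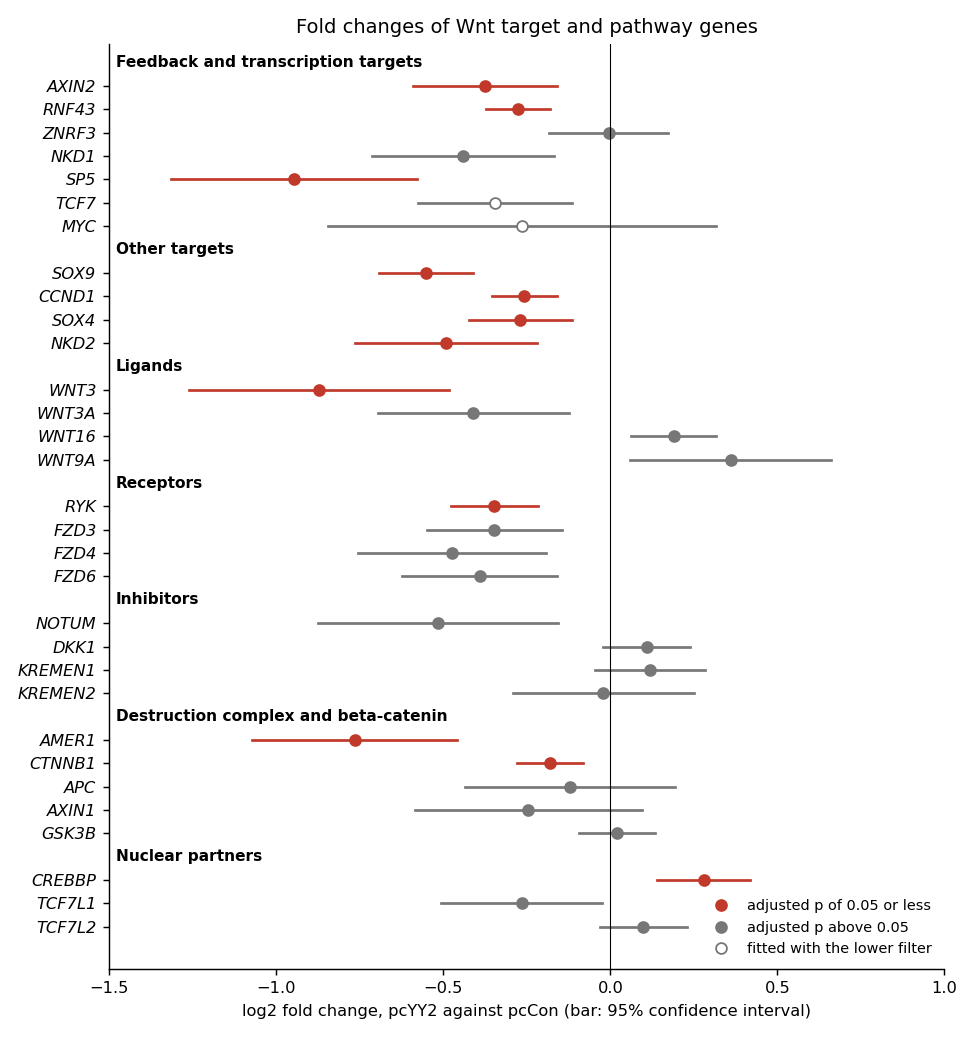
Log2 fold change of pcYY2 against pcCon for 7 Wnt target genes and for some named genes of the pathway by role. Bars are 95% confidence intervals. RNF146, FBXW11, EP300, BCL9L, HDAC2, WNT2B and ROR1 are given in the text and not shown. Red marks an edgeR adjusted p of 0.05 or less, grey a larger one, and open circles the genes fitted with the lower FPKM limit. AXIN2, RNF43 and SP5 lie below 0, whereas ZNRF3 lies at 0.

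Finally, the partners and targets of MYC were examined. Of 8 genes of the MYC network tested, 1 was lower, compared with 4.85% of all genes. This was MGA, which encodes a MAX-binding repressor (log2 fold change -0.43, SE 0.0474, edgeR adjusted p = 0.00587). Its call held without any single sample but not without pcCon sample 1 and pcYY2 sample 2 together (adjusted p 0.0630). In that fit none of the pathway genes called above passed either, with an adjusted p between 0.0615 for WNT2B and 0.166 for CTNNB1. MAX, the obligate partner of MYC, gave -0.12 (95% confidence interval -0.56 to 0.33). MXD3, MXD4 and MLXIP, also of the network, gave 0.51, -0.31 and 0.15. None of them passed, with edgeR adjusted p of 0.0695, 0.141 and 0.140, and MXD3 passed in 2 of 16 alternatives. At an unadjusted p under 0.05 (edgeR), 2 of the 8 were lower and 2 higher. The rows of MAX and MXD3 overlap those of FNTB and PRELID1 (4643 and 6523 counts over all samples, compared with 5194 for MAX and 1689 for MXD3). Of 28 known MYC targets, mainly genes of ribosome biogenesis, none passed by edgeR, with 1 lower and 6 higher at an unadjusted p under 0.05, where 14.5% of all 12015 genes were lower and 14.4% higher. Their log2 fold changes ranged from -0.36 to 0.20, and the median was 0.02.

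**Figure D4:**
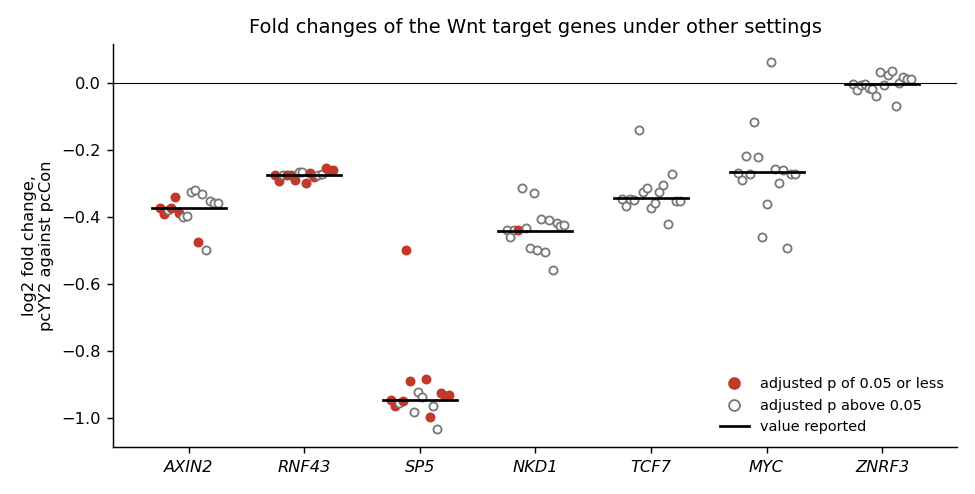
Log2 fold change of each of 7 Wnt target genes under the alternatives, with the reported value as a black line. Filled red dots passed an adjusted p of 0.05 and open dots did not. RNF43 stays between -0.30 and -0.25 and passed in 11 of 16, whereas MYC runs from -0.49 to 0.06 and never passed.

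Across the alternatives, SP5 passed in 10 of 16, RNF43 in 11 of 16 and AXIN2 in 6 of 16, and each kept a negative log2 fold change in all of them. The log2 fold change of AXIN2 ranged from -0.50 to -0.32 and that of SP5 from -1.03 to -0.50, the latter bound on log2(FPKM + 1), a scale on which changes of low genes are understated. TCF7 was negative in 15 of 15 alternatives (-0.42 to -0.14) and passed in none.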

How the data were processed

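RNA-Seq data of 3 pcCon and 3 pcYY2 samples were used. For each gene and sample, the authors deposited read counts, whole numbers without normalization, and FPKM, which equals the count over a length fixed for each gene and over the library total. The submitters' processing notes name TopHat, Bowtie2 and HTSeq, and the methods name GRCh38, Cufflinks and Cuffdiff. Groups and replicate numbers come from the sample titles. Total counts and the floor of 3 counts are given above.

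The main test was edgeR's quasi-likelihood test on counts (edgeR 4.0.16, R 4.3.3, TMM normalization) over 12015 genes whose mean FPKM was 1 or more, and over 18877 genes at 0.1 for MYC and TCF7 and the genes said to be fitted with the lower limit. Adjusted p-values are by Benjamini-Hochberg over all genes tested. The length behind FPKM exceeded the span of the gene on the genome in 1378 of 15597 genes, among them MYC, and for TCF7 it was 25785 bases against 10093 bases of exons. TCF7 and MYC did not reach 1 FPKM at these lengths. CPM was computed from the total count of each sample. The SE is the size of the log2 fold change over the root of F. Permutation tests were exact and two-sided. The tests were also tried on simulated counts.

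The genes and lists were chosen with earlier results of these data known. Named were the 10 targets, YY2, YY1, CTNNB1, APC, AXIN1, GSK3B, TCF7L1, TCF7L2, MAX and, of each other list, at most the 4 genes tested with the smallest p. Alternatives were other scalings, a replicate block, DESeq2 1.42.0, limma 3.58.1 on log2(FPKM + 1) and log2(FPKM + 0.1), other FPKM limits and leaving out each sample. The filter of edgeR's filterByExpr and the fit without 2 libraries were added after seeing the data. Tables and plots were made with matplotlib 3.10.9, scipy 1.17.1 and pandas 2.3.3 in Python 3.11.15. Genes were described with GENCODE 44, and promoter sequences come from RefSeq (GRCh38.p14).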

Additional observations from a re-analysis of the deposited data

How the results depend on the processing

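Scaling by DESeq2's size factors or the upper quartile, and limma on log2 FPKM with either pseudocount, gave 3 Wnt targets called, DESeq2 gave 4, and FPKM of at least 0.1, no filter and filterByExpr gave 2. Leaving out each sample gave 0 to 3 Wnt targets called at a median of -0.47 to -0.32, with 138 to 412 genes higher and 147 to 393 lower over all genes. Without pcCon sample 1 and pcYY2 sample 2, which leaves 2 samples a group, 0 were called at a median of -0.50, with 29 genes higher and 54 lower. Same-numbered samples did not deviate together (correlations -0.0274, -0.0318 and -0.0175), and with the replicate number as a block, which takes 2 degrees of freedom, 51 genes were higher, 50 lower and 0 Wnt targets called.

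The sign turned only for values near 0 or with a wide interval, and the cause was not tested. MYC was 0.061 without pcCon sample 3, and over all fits without samples it ran from -0.49. ZNRF3 was 0.031, 0.024 and 0.033 without pcCon sample 2, pcYY2 sample 1 or pcYY2 sample 2, -0.069 without pcYY2 sample 3, and 0.018, 0.010 and 0.011 at 0.1 FPKM, without filter and with filterByExpr. KREMEN2 was 0.023, 0.0028 and 0.014 without pcCon sample 1, pcCon sample 2 or pcYY2 sample 2, 0.059 without both pcCon sample 1 and pcYY2 sample 2, -0.087 without pcCon sample 3, and 0.0017 at 0.1 FPKM. APC was 0.024 and MAX 0.0024 without pcYY2 sample 1, where APC ran down to -0.23 without pcYY2 sample 3 and MAX to -0.45 without the pair of samples. GSK3B was -0.0037 without pcYY2 sample 3 and 0.053 without the pair. For single named genes, 649 values kept direction and side of the threshold, 100 no longer passed and 16 newly passed. Depth limits the genes with few counts most, which here are SP5 and MYC, and ASCL2, LGR5 and LEF1 could not be tested.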

Other observations

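The FPKM of a gene and the level per length used above can differ in order. The length behind FPKM was 1.504 times the union of GENCODE 44 exons at the median of 10828 genes. For TCF7 it was 25785 bases against 10093 bases of exons, and for AXIN2 it was 11212 against 5197. By mean FPKM over all samples, TCF7 (0.601) therefore stood below SP5 (1.12), whereas per kilobase of canonical transcript it stood above SP5.

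YY1, the homolog of YY2, was at 153 to 175 CPM in pcCon and 163 to 197 CPM in pcYY2 and did not pass (log2 fold change 0.17, 95% confidence interval -0.04 to 0.38, edgeR adjusted p = 0.260). PVT1, the long noncoding gene next to MYC, was chosen after its values were seen. It had 455 to 1197 counts per sample compared with 90 to 179 for MYC, and its log2 fold change was 0.14 (edgeR adjusted p = 0.475).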
